A study of Mus musculus with 18 samples.

Results

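The genes described here are 43 genes that build and run the mitotic spindle, the kinetochore and the division furrow, taken by symbol from a table of 18522 genes. All 43 passed the filter on low counts and were among the 14871 genes tested. RNA was sequenced from naive CD8+ T cells of wild type male C57BL/6N mice of 8 to 12 weeks, taken from lymph nodes and spleen and activated on plates coated with antibodies against CD3 and CD28. The cells were kept in complete medium (control) or in medium without asparagine (Asn restriction) and collected after 4, 24 or 72 h, with 3 libraries in each of the 6 groups. Per the study's methods, activated mouse cells received mouse IL-2 and IL-12. In those methods the Asn-free medium held dialysed serum and alanine, and the amino acid-proficient control medium was also given alanine. The groups of a time point thus shared strain, sex, activation and cytokines. The question was how Asn restriction shifted the mitotic programme of activating CD8+ T cells early and late.

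A naive T cell rests outside the cell cycle. After antigen receptor stimulation it grows, copies its DNA and then divides repeatedly. Genes of mitosis are transcribed late in the cycle, when the MuvB core proteins with B-MYB and FOXM1 act on promoters that carry a CCAAT box, bound by NF-Y, and a cell cycle genes homology region (CHR). The kinase CDK1 starts entry into mitosis, and kinetochores join chromosomes to spindle microtubules. The spindle checkpoint restrains the anaphase-promoting complex (APC/C) until the chromosomes are attached, and the central spindle then directs cytokinesis. In bulk RNA, fewer cells late in the cycle and less of a transcript per cell cannot be told apart.

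The members lay on 14 chromosomes, with 9 of 43 on chromosome 2, and all 43 were protein-coding genes. RefSeq promoter windows of build GRCm38.p6, which reach from 250 bases before a start site to 50 after it, were found for 35 members, in 39 windows. The 250 bases before the start were searched on both strands for the CCAAT box (CCAAT), the CHR (TTTGAA or TTCGAA) and E2F-like sites (TTTCCCGC, TTTGGCGC, TTTCGCGC or TTTGCCGC). No motif searched contains another. A CCAAT box was present in 30 of the 39 windows (76.9%), compared with 33.8% of all 32851 promoter windows of that length. A CHR was present in 15 (38.5%), compared with 17.1% of all windows. Both were present in 14 windows (35.9%), compared with 6.02% of all windows. An E2F-like site was present in 1 window (2.56%), that of Cdk1, compared with 1.86%. Among the 12673 windows of genes tested here, the shares were 35.4% for the CCAAT box, 12.6% for the CHR, 4.89% for both and 3.34% for the E2F-like site. These matches describe letters and do not show binding.

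The 160 bases before the start site are printed for 5 members on which the results turn, 5′ to 3′ on the strand of the gene, with matched motifs of either strand in capitals. Cdk1 is shown because it rose most at 72 h, Cdc20 because it was among the next, and Top2a because it was the most abundant member at 24 and 72 h. Ube2c is shown because it fell at 24 h and did not pass the test at 72 h, and Psrc1 because it moved against the other members. Psrc1 has a pair of listed start sites, and the window is that of the downstream site. The 160 bases before its upstream site hold 1 CCAAT box and 0 CHRs. All 5 printed windows hold both motifs, and so they do not stand for the members at large. Over 250 bases, 14 of the 39 member windows held both.
Cdk1 (chr10:69352913-69353072, minus strand): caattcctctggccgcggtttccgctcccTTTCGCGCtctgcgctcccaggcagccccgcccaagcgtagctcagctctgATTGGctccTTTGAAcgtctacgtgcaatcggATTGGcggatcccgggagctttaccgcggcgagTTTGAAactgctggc
Cdc20 (chr4:118437344-118437503, minus strand): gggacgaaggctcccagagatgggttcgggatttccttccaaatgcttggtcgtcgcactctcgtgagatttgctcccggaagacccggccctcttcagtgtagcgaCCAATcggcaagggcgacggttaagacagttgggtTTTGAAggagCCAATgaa
Top2a (chr11:99024190-99024349, minus strand): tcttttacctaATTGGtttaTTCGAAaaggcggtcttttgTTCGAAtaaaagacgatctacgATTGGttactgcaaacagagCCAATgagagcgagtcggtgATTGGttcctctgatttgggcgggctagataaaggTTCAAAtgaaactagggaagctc
Ube2c (chr2:164769769-164769928, plus strand): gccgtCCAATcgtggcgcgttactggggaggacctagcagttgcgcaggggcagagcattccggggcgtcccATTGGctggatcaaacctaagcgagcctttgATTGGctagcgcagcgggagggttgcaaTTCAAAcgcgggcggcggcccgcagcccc
Psrc1 (chr3:108383678-108383837, plus strand): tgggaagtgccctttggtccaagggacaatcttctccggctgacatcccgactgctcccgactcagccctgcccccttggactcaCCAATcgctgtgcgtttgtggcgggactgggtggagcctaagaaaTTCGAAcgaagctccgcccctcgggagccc
In these windows the capitals mark 2 CCAAT boxes, 2 CHRs and 1 E2F-like site in Cdk1. They mark 2 CCAAT boxes and 1 CHR in Cdc20, 4 CCAAT boxes and 3 CHRs in Top2a, 3 CCAAT boxes and 1 CHR in Ube2c, and 1 of each in Psrc1.

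Libraries held 11417641 to 21872456 counts over genes, with a median of 17975326. Fewest counts came from Control 72 h replicate 2, with a mitochondrial share of 0.439% against 0.741% or more in the other 17 libraries. Asn restriction 72 h replicate 2 had the lowest share of ERCC spike-in counts, 0.829%, against 1.26% to 1.72% elsewhere. The 9 CD8 T cell marker genes, Cd8a and Cd8b1 among them, were present in every library. Of 15 markers of B cells, CD4 T cells, natural killer cells and myeloid cells, 14 stayed below 5 CPM (TMM-scaled counts relative to the library total) in every library, and the remaining marker, Zbtb7b, reached 128 CPM. The replicates are described as experimental replicates of 1 experiment, so p-values measure only the spread between these libraries, which may be technical.

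Most mitotic genes were low at 4 h and rose steeply with activation in both media. In control at 4 h 37 members averaged under 10 CPM. The sums below weigh the abundant members most. In control at 4 h these were Bub3 (102 to 116 CPM), Smc4 (93.1 to 106 CPM) and Smc2 (39.6 to 46.8 CPM). The 43 members together made up 386 to 421 CPM per library in control at 4 h and 382 to 422 CPM under Asn restriction. At 24 h the sum stood at 2759 to 2855 CPM in control and at 1251 to 1301 CPM under Asn restriction. At 72 h the order was the opposite, with 4841 to 5144 CPM in control and 5651 to 5750 CPM under Asn restriction. The sums of both media overlapped at 4 h and were apart at 24 and 72 h. The summed CD8 T cell markers stood in control and restricted libraries at 2225 to 2237 and 2113 to 2143 CPM at 24 h, and at 2441 to 2497 and 2257 to 2317 CPM at 72 h. The summed markers of other cell types, Zbtb7b included, stood at 17.4 to 19.5 and 36.2 to 44.2 CPM at 24 h and at 121 to 133 and 57.7 to 66.8 CPM at 72 h. Most single markers did not follow that sum. Of the 13 tested, 7 fell and 1 rose between 24 and 72 h in control (35.1% and 35.7% of all genes). Under Asn restriction 11 fell and 1 rose (35.5% and 35.3% of all genes). The part of these markers in the results was not tested.

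**Figure D1:**
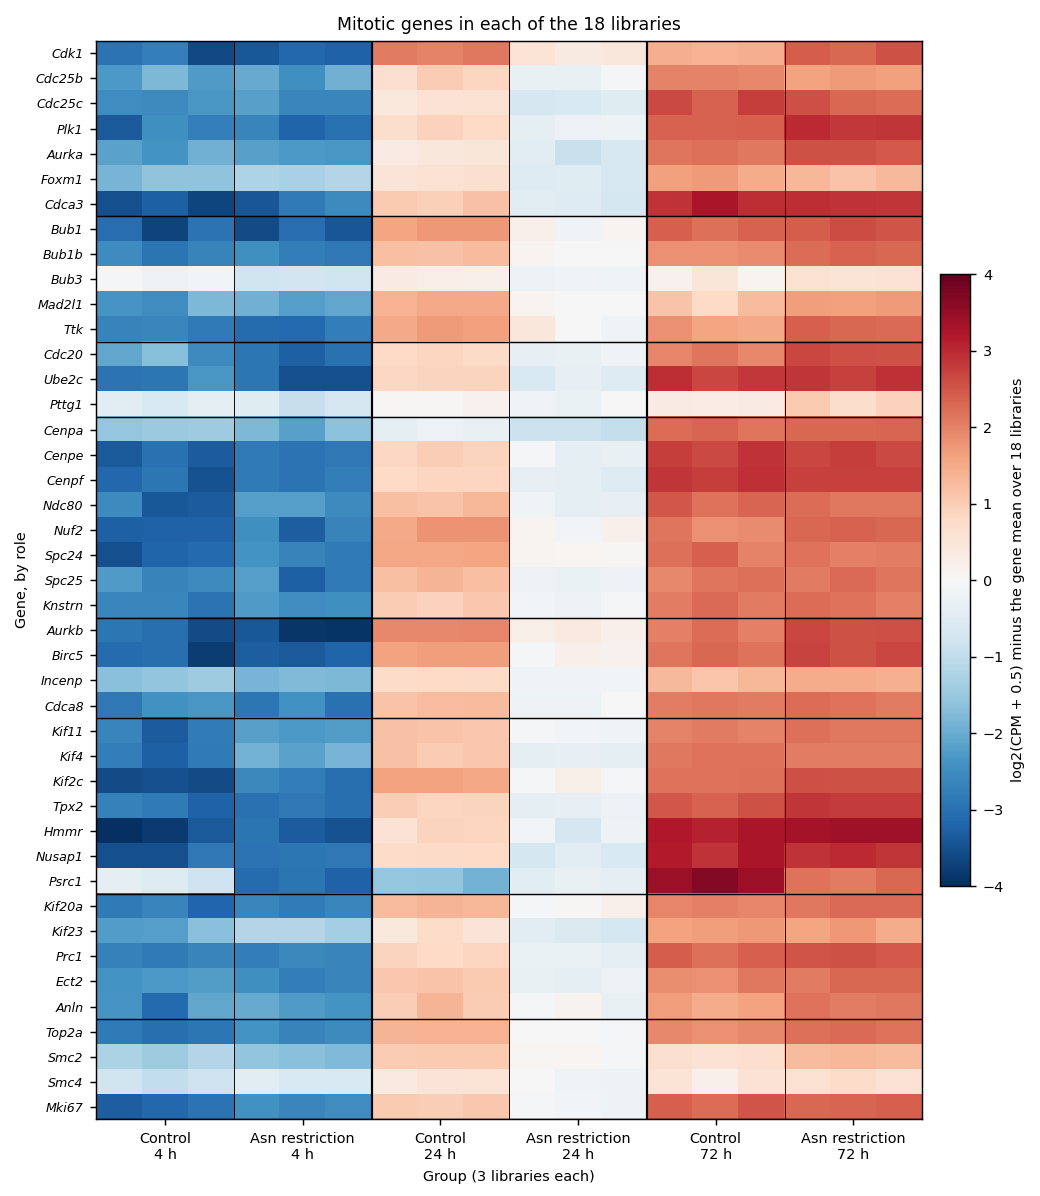
Level of each of the 43 mitotic genes (rows, ordered by role, with lines between roles) in each of the 18 libraries (columns, 3 per group), as log2(CPM + 0.5) minus the mean of the gene over the libraries. Most rows are blue at 4 h, pale under Asn restriction at 24 h and red at 72 h, and the row of Psrc1 is bluest under Asn restriction at 4 h and reddest in control at 72 h.

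Between 4 and 24 h the control cells raised 42 of the 43 members and lowered 1, against 34.9% of all genes raised and 34.7% lowered. The median member rose by 4.06 on the log2 scale. Kif2c, a microtubule depolymerase, rose 104-fold, from 0.247 to 26.0 CPM, a fold set by only 4, 3 and 5 counts per library at 4 h. Cdk1 rose 48.5-fold. The member that fell was Psrc1, a microtubule-associated protein, from 3.93 to 1.58 CPM. Under Asn restriction all 43 members rose between 4 and 24 h and 0 fell, against 34.9% and 30.9% of all genes, with a median log2 change of 2.63. Aurkb rose 24.7-fold and Cdk1 17.7-fold there. The comparisons within a medium share libraries at 24 h with those that follow.

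Between 24 and 72 h the control cells raised 35 members and lowered 3, against 35.7% and 35.1% of all genes, and 5 did not pass the test (median log2 change 0.88). The 3 that fell were Cdk1 (log2 change -0.62), the condensin subunit Smc2 (-0.41) and the checkpoint gene Mad2l1 (-0.40). Psrc1 rose 47.1-fold. Restricted cells raised all 43 members over the same interval and lowered 0, against 35.3% and 35.5% of all genes, with a median log2 change of 2.45. Hmmr, which encodes a spindle assembly protein, rose 13.2-fold and Nusap1, a microtubule-bundling protein gene, 11.9-fold. Of the 43 members, 30 had their highest group mean under Asn restriction at 72 h and 13 in control at 72 h. The ratio of the restricted 72 h mean to the control 24 h mean was above 1 in all 43 members, with a median of 1.997 and a range from 1.10 to 18.6. Neither the peak groups nor this ratio was counted over all genes tested.

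At 24 h Asn restriction lowered mitotic genes of every role. Of the 43 members, 41 were lower (28% of all genes tested), 1 was higher (27.5% of all genes) and 1 did not pass the test. The median log2 fold change was -1.26, compared with 0.01 over all genes tested. The largest falls were those of Aurkb, Nuf2, Cdca3 and Bub1, from -1.68 to -1.64, and the smallest among the calls was that of Bub3, -0.46. The 3 restricted libraries lay wholly below the 3 control libraries in 42 members and wholly above them in 1, against 61.3% of all genes without overlap in either direction. Adjusted p-values of the 41 lower members ranged up to 1e-06 in edgeR's quasi-likelihood test with Benjamini-Hochberg adjustment. With ERCC scaling the calls of Bub3, Cenpa and Smc4 were lost (adjusted p = 0.389, 0.143 and 0.106).

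At 72 h the members split. Of the 43, 22 were higher under Asn restriction (25.4% of all genes tested), 4 were lower (23.8% of all genes) and 17 did not pass the test. The median log2 fold change was 0.19, compared with -0.01 over all genes, and it was 0.08 without TMM factors and 0.54 with ERCC scaling. With ERCC scaling without Asn restriction 72 h replicate 2, the library with the lowest spike-in share, it was 0.22. The rises were smaller than the falls had been at 24 h, led by Cdk1 (0.99), Ttk (0.68), Smc2 (0.65) and Cdc20 (0.60). Psrc1, Foxm1, Cdc25b and Nusap1 were lower, but with ERCC scaling the signs of Cdc25b (0.03) and Nusap1 (0.16) turned. Without overlap of libraries, 23 members were higher and 5 lower, against 53.6% of all genes in either direction. The balance depended on the scaling: without TMM factors 17 members were higher and 12 lower, and with scaling by the ERCC spike-ins 24 were higher and 1 lower. ERCC scaling without Asn restriction 72 h replicate 2 gave 17 higher and 1 lower.

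The effect of Asn restriction at 72 h was above that at 24 h in 42 of 43 members and below it in 1, the difference of effects being tested in the same fit (29.5% and 27.7% of all genes). The median difference was 1.41 on the log2 scale, compared with -0.04 over all genes. Cdk1 led with 2.61, followed by Ttk with 2.22, Aurkb with 2.17 and Mad2l1 and Nuf2 with 2.05 each, and Psrc1 went the other way with -2.87. Both a lower 24 h and a higher 72 h level passed the test in 21 members, against 13.6% of all genes. A fall at 24 h with no call at 72 h was found in 17, and a fall at both times in 3 (Cdc25b, Foxm1 and Nusap1). Psrc1 had a rise then a fall, and Pttg1 a rise at 72 h alone. The shares of all genes with these other patterns were not computed, so their frequency among members has no comparison here. Both effects were taken against separate control libraries.

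**Figure D2:**
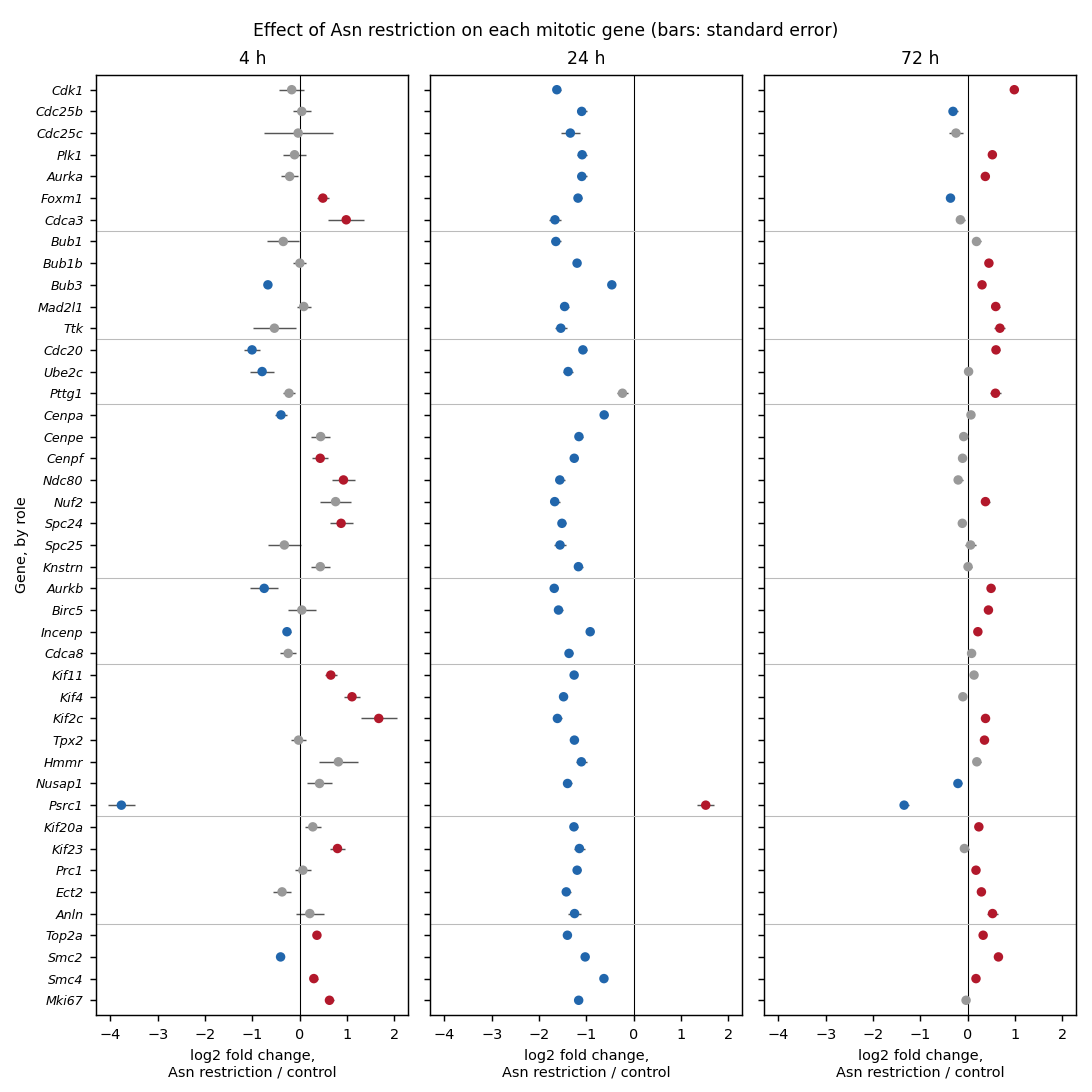
Log2 fold change of Asn restriction over control (x axis) for each of the 43 mitotic genes (y axis, ordered by role) at 4, 24 and 72 h, with standard errors as bars. Red points passed an adjusted p of 0.05 as higher, blue points as lower, and grey points did not pass; at 24 h 41 points are blue and that of Psrc1 is red, and at 72 h 22 are red and 4 blue.

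Genes of mitotic entry fell together at 24 h and parted at 72 h. All 7 were lower at 24 h (median log2 fold change -1.18), and at 72 h Cdk1, Plk1 and Aurka were higher, Foxm1 and Cdc25b lower, and Cdc25c (-0.25) and Cdca3 (-0.15) did not pass. Without TMM factors both passed as lower (adjusted p = 0.0328 and 0.014), and so did Cdc25c with limma-voom (0.0358). Cdk1, the kinase that triggers entry, stood at 72.2, 66.6 and 73.7 CPM in the control libraries at 24 h and at 24.3, 21.3 and 23.2 CPM in the restricted ones. By 72 h Cdk1 stood at 46.3, 44.6 and 46.9 CPM in control and at 91.1, 83.4 and 98.9 CPM under Asn restriction. Cdk1 was thus 3.08-fold lower and then 1.98-fold higher, with no overlap at either time (adjusted p = 3.06e-16 and 1.29e-11). Its control level fell between 24 and 72 h while its restricted level rose.

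Plk1, a kinase of spindle assembly and mitotic exit, stood at 25.2, 29.4 and 27.0 CPM in control and at 12.0, 13.1 and 13.3 CPM under Asn restriction at 24 h. At 72 h its values were 81.0, 80.6 and 82.6 CPM in control and 126, 111 and 114 CPM under Asn restriction. The groups were apart both times, with log2 fold changes of -1.09 and 0.52. Aurka, the centrosomal Aurora kinase, changed by -1.10 and 0.37.

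Foxm1, which encodes the transcription factor of late cell cycle genes, was lower at both later times. It stood at 28.9, 30.9 and 31.4 CPM in control and at 13.8, 13.9 and 12.6 CPM under Asn restriction at 24 h. At 72 h Foxm1 stood at 62.8, 66.2 and 56.9 CPM in control and at 50.5, 44.3 and 49.6 CPM under Asn restriction. The restricted libraries were the lower at both times, by 1.18 and 0.36 on the log2 scale (standard errors 0.0891 and 0.0793, adjusted p = 1.24e-12 and 0.000286). At 4 h Foxm1 was higher under Asn restriction, with 8.12, 7.81 and 8.57 CPM against 5.16, 6.15 and 6.13 CPM (adjusted p = 0.00116). That 4 h call was lost with ERCC scaling (adjusted p = 0.318). With ERCC scaling Foxm1 at 72 h kept its sign but did not pass (adjusted p = 0.878, or 0.242 when Asn restriction 72 h replicate 2 was also left out).

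Cdc25b, a phosphatase that activates CDK1, also stayed lower. At 72 h it stood at 59.2, 59.8 and 57.1 CPM in control and at 45.8, 49.0 and 47.3 CPM under Asn restriction (log2 fold change -0.31, adjusted p = 0.00739). With ERCC scaling its value turned to 0.03, and without Asn restriction 72 h replicate 2 that scaling gave -0.29, which did not pass. Cdca3, a factor that promotes the destruction of WEE1, fell from 23.9, 22.2 and 25.8 CPM in control to 8.27, 7.71 and 6.68 CPM under Asn restriction at 24 h. At 72 h its libraries overlapped, at 87.6, 113 and 90.5 CPM and at 89.9, 86.0 and 84.9 CPM. Cdc25c, a further CDK1-activating phosphatase, was the least abundant member under Asn restriction at 24 h, with 1.79 ± 0.135 CPM (mean ± SD, n = 3).

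All 5 spindle checkpoint genes were lower at 24 h (median log2 fold change -1.46), and 4 were higher at 72 h (median 0.45). Bub1b encodes BUBR1, a component of the inhibitor of the APC/C, and stood at 73.5, 71.5 and 75.5 CPM in control and at 33.7, 31.3 and 31.2 CPM under Asn restriction at 24 h. At 72 h the values were 113, 112 and 118 CPM in control and 150, 164 and 155 CPM under Asn restriction. The groups did not overlap (log2 fold changes -1.20 and 0.45). Ttk, the kinase MPS1 that recruits the checkpoint, fell from 19.3, 21.9 and 20.9 CPM in control to 8.88, 6.47 and 5.79 CPM under Asn restriction at 24 h. At 72 h its 3 control libraries had 24.2, 19.97 and 19.2 CPM and its restricted libraries 36.0, 33.7 and 32.4 CPM.

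Mad2l1, which encodes the checkpoint protein MAD2, stood at 104, 114 and 115 CPM in control and at 42.0, 39.5 and 39.5 CPM under Asn restriction at 24 h. At 72 h Mad2l1 stood at 87.1, 69.4 and 95.2 CPM in control and at 127, 125 and 129 CPM under Asn restriction. The lowest of the control values came from replicate 2, and all 3 lay below the restricted ones (log2 fold changes -1.46 and 0.59). Bub1, the kinase that brings checkpoint proteins to kinetochores, fell from 36.1, 40.2 and 40.1 CPM to 13.7, 10.6 and 12.7 CPM at 24 h. At 72 h Bub1 stood at 64.0, 56.6 and 62.8 CPM in control and at 65.9, 73.9 and 69.2 CPM under Asn restriction. It did not pass the test (adjusted p = 0.0753), but passed with limma-voom (0.0238) and with ERCC scaling (0.0267). With ERCC scaling without Asn restriction 72 h replicate 2, Bub1 did not pass. Bub3, which carries BUB1 and BUBR1 to kinetochores, was the most abundant member in control at 4 h, with 109 ± 6.74 CPM (SD, n = 3), and changed least among the calls at 24 h.

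Of the genes that open anaphase, Cdc20, the activator of the APC/C, stood at 52.3, 54.1 and 51.2 CPM in control and at 23.5, 24.1 and 27.3 CPM under Asn restriction at 24 h. At 72 h Cdc20 stood at 117, 133 and 113 CPM in control and at 191, 180 and 178 CPM under Asn restriction. The direction turned between these times (log2 fold changes -1.07 and 0.60, adjusted p = 1.77e-11 and 1.74e-07). Cdc20 was already lower at 4 h, with 6.75, 8.74 and 4.74 CPM in control and 3.60, 2.62 and 3.34 CPM under Asn restriction. Ube2c, the ubiquitin-conjugating enzyme of the APC/C, had a log2 fold change of -1.39 at 24 h. At 72 h Ube2c had the same level in both media within the spread of its libraries, 119 ± 10.9 and 120 ± 7.86 CPM (SD, n = 3).

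Pttg1, which encodes securin, the inhibitor of the cohesin-cutting protease separase, rose by 0.58 on the log2 scale in control between 4 and 24 h, less than all other members but Bub3 and Psrc1. At 24 h it stood at 14.4, 14.3 and 15.5 CPM in control and at 12.4, 11.3 and 13.8 CPM under Asn restriction, a log2 fold change of -0.24 that did not pass the test (adjusted p = 0.0884). At 72 h it stood at 17.4, 17.0 and 17.5 CPM in control and at 29.2, 22.7 and 26.3 CPM under Asn restriction. The restricted libraries were all higher, by 1.503-fold (adjusted p = 5.75e-05). Pttg1 was the least abundant member in control at 72 h.

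**Figure D3:**
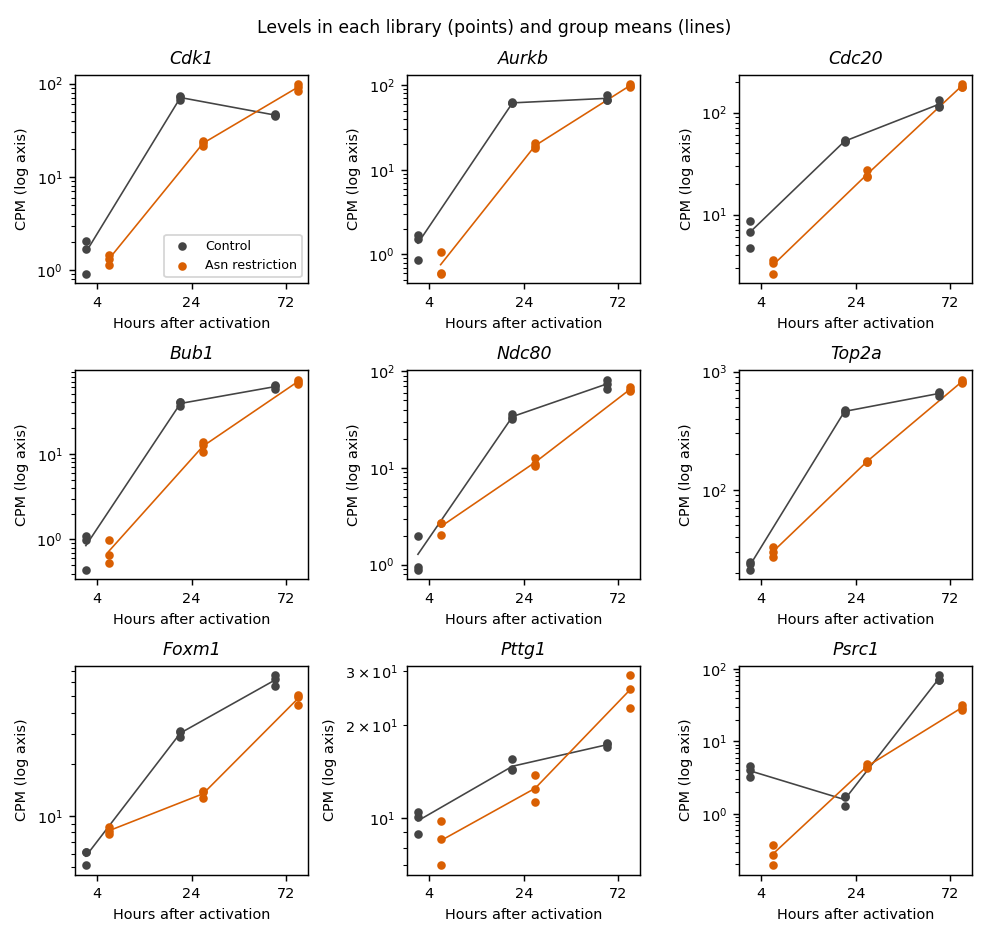
Level in CPM (log axis, its range set for each gene) of 9 mitotic genes at 4, 24 and 72 h, spaced evenly, in control (grey) and under Asn restriction (orange), with 1 point per library and lines through the group means. In Cdk1, Aurkb, Cdc20 and Top2a the orange points lie below the grey ones at 24 h and above them at 72 h, in Foxm1 they lie below at both times, and in Psrc1 they lie above at 24 h and below at 72 h.

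Kinetochore genes fell at 24 h and, in the main, did not differ past the test at 72 h. All 8 were lower at 24 h (median log2 fold change -1.39), and at 72 h only Nuf2 passed (0.38), the other 7 lying between -0.20 and 0.07. Ndc80, the subunit that binds microtubules, stood at 33.3, 32.1 and 36.3 CPM in control and at 12.6, 10.6 and 11.1 CPM under Asn restriction at 24 h. At 72 h Ndc80 stood at 81.8, 66.0 and 73.7 CPM in control and at 67.8, 63.2 and 62.4 CPM under Asn restriction. These 72 h values overlapped (adjusted p = 0.0714), and the call depended on the setting. Ndc80 passed as lower without Control 72 h replicate 2 (0.0118), with DESeq2 size factors (0.0439), without TMM factors (0.00544), in the DESeq2 Wald test (0.0346), with limma-voom (0.0127) and with 10 or more counts per library (0.0298). Its partner in the NDC80 complex, Nuf2, stood at 32.5, 39.4 and 39.3 CPM and at 11.8, 10.2 and 12.8 CPM at 24 h, in control and under Asn restriction. At 72 h Nuf2 stood at 49.7, 40.2 and 41.9 CPM in control and at 56.5, 58.8 and 56.3 CPM under Asn restriction. The 4 subunits of that complex thus did not move alike at 72 h, with log2 fold changes of -0.20 for Ndc80, 0.38 for Nuf2, -0.11 for Spc24 and 0.06 for Spc25. The Nuf2 call alone passed, and differences between subunits were not tested.

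Among the other kinetochore genes, Cenpa, the centromeric histone H3 variant, fell least at 24 h (-0.62), and at 72 h it stood at 107 ± 5.88 CPM in control and 113 ± 0.481 CPM under Asn restriction (SD, n = 3). The kinetochore motor gene Cenpe fell by 1.16 at 24 h, the fibrous corona gene Cenpf by 1.26 and Knstrn, which encodes a spindle and kinetochore adaptor, by 1.17. At 72 h Cenpe, Cenpf and Knstrn had log2 fold changes of -0.08, -0.11 and 0.01 and did not pass. Spc24 passed as lower at 72 h without Control 72 h replicate 3 (adjusted p = 0.0418) and without TMM factors (0.0238). Cenpf passed as lower without TMM factors (0.00304), with limma-voom (0.0438) and with 10 or more counts per library (0.0366), and Cenpe without TMM factors (0.0186).

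Genes of the chromosomal passenger complex, which corrects faulty attachments, were all lower at 24 h (median log2 fold change -1.48), and 3 of 4 were higher at 72 h. Aurkb, its kinase, stood at 61.1, 61.6 and 62.4 CPM in control and at 18.9, 20.8 and 18.3 CPM under Asn restriction at 24 h. At 72 h Aurkb stood at 66.3, 77.1 and 66.1 CPM in control and at 103, 94.4 and 97.4 CPM under Asn restriction. The control level did not change past the test between these times, while the restricted level rose from 19.3 ± 1.29 to 98.3 ± 4.36 CPM (SD, n = 3). Birc5, which encodes survivin, changed by -1.59 and 0.44, and the scaffold gene Incenp by -0.92 and 0.22. The 72 h call of Incenp was lost without TMM factors (adjusted p = 0.156) and with ERCC scaling without Asn restriction 72 h replicate 2 (0.154). Cdca8, which encodes borealin, changed by -1.37 at 24 h and had a value of 0.08 at 72 h that did not pass.

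Spindle motor and spindle-associated genes held both common and divergent patterns. Of 7, 6 were lower at 24 h and Psrc1 was higher. Kif11, the motor that separates the spindle poles, stood at 88.5, 86.6 and 83.8 CPM in control and at 37.4, 36.2 and 34.6 CPM under Asn restriction at 24 h. At 72 h Kif11 stood at 157, 166 and 155 CPM and at 183, 169 and 173 CPM, in control and under Asn restriction. The libraries did not overlap, but the adjusted p was 0.0673. It was 0.0231 without Control 72 h replicate 2 and 0.0157 with limma-voom. Kif2c stood at 26.3, 26.6 and 25.2 CPM in control and at 7.79, 9.94 and 7.97 CPM under Asn restriction at 24 h, and changed by 0.38 at 72 h. Tpx2, an activator of Aurora A on the spindle, changed by -1.25 and 0.36, and the chromokinesin gene Kif4 by -1.48 at 24 h, with a 72 h value of -0.10 that passed only without TMM factors (adjusted p = 0.012). Hmmr changed by -1.10 at 24 h, and its 72 h value of 0.19 did not pass (adjusted p = 0.0633). It passed as higher without Control 72 h replicate 3 (0.0433), with only the compared libraries (0.023) and with no filter (0.0484). It also passed with limma-voom (0.00877) and with ERCC scaling (0.0246), but not with ERCC scaling without Asn restriction 72 h replicate 2.

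Nusap1 fell from 26.0, 26.6 and 27.0 CPM in control to 9.37, 11.1 and 9.90 CPM under Asn restriction at 24 h. At 72 h it stood at 144, 117 and 152 CPM in control and at 117, 126 and 116 CPM under Asn restriction, and these libraries overlapped (log2 fold change -0.21, adjusted p = 0.0292). That call was lost without any of 4 libraries, with adjusted p = 0.131 without Control 72 h replicate 1, 0.209 without Control 72 h replicate 3, 0.0868 without Asn restriction 72 h replicate 1 and 0.111 without Asn restriction 72 h replicate 3. With ERCC scaling the value turned to 0.16, and without Asn restriction 72 h replicate 2 that scaling gave -0.18, neither past the test. With only the compared libraries the adjusted p was 0.0601.

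Psrc1, whose product binds spindle microtubules, was the lone member higher at 24 h and fell most at 4 and 72 h. At 4 h it stood at 4.58, 4.01 and 3.21 CPM in control and at 0.269, 0.366 and 0.196 CPM under Asn restriction, where 3 to 6 counts per library lay behind each value. At 24 h it stood at 1.74, 1.71 and 1.28 CPM in control and at 4.29, 4.88 and 4.51 CPM under Asn restriction. At 72 h it stood at 70.8, 82.6 and 70.3 CPM in control and at 28.7, 27.4 and 31.8 CPM under Asn restriction. The media never overlapped, and the restricted libraries were lower, then higher, then lower. The log2 fold changes were -3.77, 1.53 and -1.34, with standard errors of 0.287, 0.179 and 0.0974 and adjusted p = 1.71e-12, 1.4e-08 and 4.95e-13. The effect at 24 h exceeded that at 4 h by 5.29.

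Cytokinesis genes were all lower at 24 h (median log2 fold change -1.25), and 4 of 5 were higher at 72 h. Prc1, which crosslinks the central spindle, stood at 33.1, 31.5 and 32.7 CPM in control and at 14.5, 14.8 and 13.3 CPM under Asn restriction at 24 h. At 72 h Prc1 stood at 97.1, 83.7 and 94.4 CPM in control and at 105, 107 and 100.4 CPM under Asn restriction. The libraries did not overlap (log2 fold change 0.18, adjusted p = 0.0247), but the call was lost without Control 72 h replicate 2, Asn restriction 72 h replicate 1 or Asn restriction 72 h replicate 2 (adjusted p = 0.153, 0.0762 and 0.0912). Anln, which encodes the furrow scaffold anillin, changed by -1.25 and 0.53. Ect2, the activator of RhoA at the furrow, changed by -1.42 and 0.29, and Kif20a, the motor that carries the passenger complex to the central spindle, by -1.26 and 0.24. Kif23, the motor of centralspindlin, changed by -1.15 at 24 h, and its -0.07 at 72 h did not pass. Without TMM factors the 72 h calls of Kif20a, Ect2 and Prc1 were lost (adjusted p = 0.125, 0.0568 and 0.411). They were also lost with ERCC scaling without Asn restriction 72 h replicate 2 (adjusted p = 0.214, 0.144 and 0.292), and the call of Anln was kept in both. For Prc1 the adjusted p was 0.0516 with DESeq2 size factors, 0.0597 in the DESeq2 Wald test, 0.0549 with 10 or more counts per library and 0.054 with only the compared libraries.

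Among genes of chromosome structure, Top2a, the topoisomerase that untangles sister chromatids, stood at 449, 463 and 469 CPM in control and at 177, 174 and 173 CPM under Asn restriction at 24 h. At 72 h Top2a stood at 664, 622 and 674 CPM in control and at 811, 856 and 794 CPM under Asn restriction. The media were apart at both times (log2 fold changes -1.40 and 0.33). Per kilobase of the gene length in the table, Top2a was also the highest member at 72 h, with 125 CPM per kb in control and 157 under Asn restriction. Cdc20 followed with 67.5 and 102 CPM per kb. Anln was lowest per kb under Asn restriction at 72 h, with 8.25.

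Smc2 and Smc4 form the core of condensin. Smc2 stood at 218, 220 and 220 CPM in control and at 111, 112 and 100.3 CPM under Asn restriction at 24 h. Its 72 h values were 168, 158 and 169 CPM in control and 258, 266 and 255 CPM under Asn restriction. Smc2 thus turned from 2.03-fold lower to 1.57-fold higher without overlap. Smc4 changed by -0.63 at 24 h and by 0.18 at 72 h, with the latter call lost without Control 72 h replicate 2, Asn restriction 72 h replicate 1 or Asn restriction 72 h replicate 2 (adjusted p = 0.368, 0.0736 and 0.211). The Smc4 call was also lost with DESeq2 size factors (0.0795), without TMM factors (0.463), in the DESeq2 Wald test (0.106), with 10 or more counts per library (0.108), with only the compared libraries (0.122) and with ERCC scaling without Asn restriction 72 h replicate 2 (0.307). Mki67, the coat protein of mitotic chromosomes used as a proliferation marker, stood at 243, 236 and 249 CPM in control and at 113, 109 and 103 CPM under Asn restriction at 24 h. At 72 h Mki67 stood at 627, 556 and 672 CPM in control and at 585, 603 and 627 CPM under Asn restriction. Its 72 h libraries overlapped, with a log2 fold change of -0.03 that passed as lower without TMM factors (-0.14, adjusted p = 0.0383).

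At 4 h the members had no common direction. Of the 43, 12 were higher under Asn restriction (23.6% of all genes tested), 8 were lower (22% of all genes) and 23 did not pass, with a median log2 fold change of 0.05 (0.02 over all genes). Without overlap of libraries, 12 were higher and 7 lower, against 54.7% of all genes in either direction. Levels were low, as 37 members averaged under 10 CPM in control and 37 under Asn restriction, and 11 had fewer than 10 counts in at least 1 library. Without TMM factors 9 were higher and 10 lower, and with ERCC scaling 4 and 5. Kif2c stood at 0.235, 0.268 and 0.239 CPM in control and at 0.968, 0.793 and 0.589 CPM under Asn restriction (log2 fold change 1.67, standard error 0.380, adjusted p = 0.000464). The groups did not overlap, and the levels were those of a few counts.

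Other members higher at 4 h included Kif4 (1.11), Ndc80 (0.93), Spc24 (0.88), Kif23 (0.80), Kif11 (0.66), Mki67 (0.63), Top2a (0.37) and Smc4 (0.30), and those lower included Bub3 (-0.67) and Smc2 (-0.40). With ERCC scaling the calls of Spc24, Kif11, Mki67, Top2a and Smc4 were lost (adjusted p = 0.095, 0.0733, 0.0791, 0.473 and 0.624). The Spc24 call was also lost with limma-voom (0.0735), and that of Smc4 without TMM factors (0.0526). The calls of Cdca3 and Cenpf as higher and of Aurkb, Cenpa, Incenp and Ube2c as lower were lost when 1 library was left out. Without Control 4 h replicate 1 the adjusted p was 0.28 for Aurkb and 0.0751 for Cdca3, and without Control 4 h replicate 2 it was 0.106 for Aurkb. Without Control 4 h replicate 3 it was 0.255 for Ube2c, 0.386 for Cenpf, 0.203 for Incenp and 0.151 for Cdca3. Without Asn restriction 4 h replicate 1 it was 0.0896 for Cenpf and 0.0719 for Incenp. Without Asn restriction 4 h replicate 2 it was 0.159 for Aurkb, 0.119 for Cenpa, 0.0882 for Cdca3 and 0.0743 for Ube2c. Without Asn restriction 4 h replicate 3 it was 0.153 for Aurkb, 0.204 for Cdca3, 0.0957 for Cenpf and 0.065 for Ube2c. Other calls appeared when 1 library was left out. They were Mad2l1 (adjusted p = 0.0482), Hmmr (0.0252) and Nusap1 (0.0264), all higher, without Control 4 h replicate 3, and Cenpe (0.0328), higher, without Control 4 h replicate 2. Nuf2 (0.00829) was higher and Cdca8 (0.048) lower without Asn restriction 4 h replicate 2, and Spc25 (0.0444) was lower without Asn restriction 4 h replicate 1.

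From 4 to 24 h the effect of Asn restriction moved down in 35 members and up in 1 (17.8% and 18.5% of all genes), and 7 did not pass, with a median difference of -1.31. With ERCC scaling 23 members moved down. Among the members that moved down in the main fit, Kif2c (-3.29), Cdca3 (-2.65) and Kif4 (-2.59) moved most, from higher at 4 h to lower at 24 h. In the control libraries at 4 h Kif2c had only 4, 3 and 5 counts and Cdca3 9, 8 and 9. The 4 h call of Cdca3 was lost in several settings, ERCC scaling among them. The member that moved up was Psrc1 (5.29). Cdc20 was lower by a like amount at both times, and its difference of -0.07 did not pass.

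Other genes of mitosis were counted in the same way. Over all genes tested, 28% were lower and 27.5% higher at 24 h, and 25.4% were higher and 23.8% lower at 72 h. Of 74 further mitotic genes, 71 were lower and 0 higher at 24 h, with a median log2 fold change of -1.29, and 31 were higher and 8 lower at 72 h, with a median of 0.16. Pimreg fell by 2.55 at 24 h. Trip13, an ATPase that recycles checkpoint proteins, rose by 1.34 at 72 h, and the mitotic cyclin gene Ccnb1 rose by 1.25. The core subunits of the APC/C with Fzr1 moved less: of 15, 7 were lower and 2 higher at 24 h (median -0.17), and 7 were higher and 1 lower at 72 h (median 0.08). Of 14 DREAM and MuvB genes, which control mitotic promoters, 6 were lower (42.9%) and 4 higher (28.6%) at 24 h. At 72 h 5 of the 14 were higher (35.7%) and 3 lower (21.4%). Among these Mybl2, which encodes B-MYB, changed by -1.57 and 1.12, and Lin37, a MuvB subunit, fell by 1.08 at 72 h.

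Of 45 DNA replication genes, 45 were lower at 24 h (median log2 fold change -1.10), against 28% of all genes. At 72 h 37 were higher and 2 lower (median 0.58), against 25.4% and 23.8% of all genes. At 4 h 24 of them were lower and 3 higher, where the mitotic members had 8 lower and 12 higher (22% and 23.6% of all genes). In control cells between 24 and 72 h, 42 of the 45 replication genes fell and 1 rose, whereas 35 of 43 mitotic members rose and 3 fell. Of all genes, 35.1% fell and 35.7% rose there. Between 24 and 72 h the restricted cells raised 42 of the 45 and lowered 0, against 35.3% and 35.5% of all genes. Differences between the lists were not tested.

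**Figure D4:**
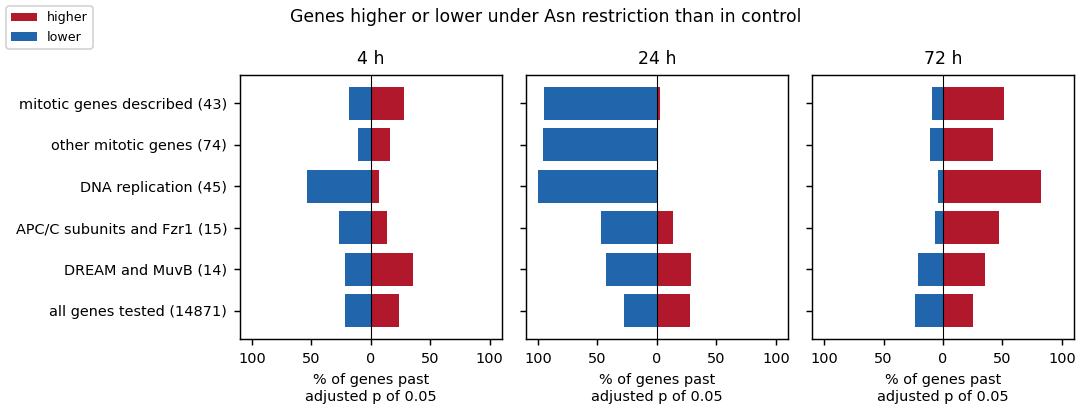
Share in percent of each gene list that passed an adjusted p of 0.05 as higher (red, to the right) or lower (blue, to the left) under Asn restriction than in control at 4, 24 and 72 h, with list sizes in parentheses. At 24 h 95.3% of the members and 28% of all genes tested are lower, and at 72 h 51.2% of the members and 25.4% of all genes are higher.

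Reads of overlapping genes may touch some of these values, since the strand setting of the counting is not given in the sources used here. In the GENCODE annotation, 13 members share exonic bases with another gene, and 11 of them with a gene on the opposite strand. The longest overlap is that of Kif20a with Cdc23, an APC/C subunit gene, over 1271 bases. Kif4 shares 832 bases with Pdzd11 on the opposite strand. At 4 h Pdzd11 had 196, 122 and 227 counts in control and 419, 361 and 311 under Asn restriction. Kif4 had 38, 16 and 45 counts in control and 85, 61 and 72 under Asn restriction at that time. The part of Pdzd11 reads in the 4 h values of Kif4 was not tested.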

How the data were processed

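RNA-seq counts were analysed for 18 libraries in 6 groups, as named in the labels. The deposited table holds whole-number gene counts that the authors made from their reads, and a gene length in base pairs. The submitters' notes name Trim Galore 0.60, STAR 2.7 and RSEM 1.31 with the builds mm10 and hg19; their roles, the annotation and the strand setting are not given in the sources used here. The authors' normalized counts, group means, fold changes and adjusted p-values stand in the same table and were not used. The test that the authors ran on single genes is not given in the sources used here.

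Genes were filtered with filterByExpr of edgeR 4.0.16 in R 4.3.3 (14871 of 18522 kept), scaled by TMM, and fitted with edgeR's quasi-likelihood test over all 18 libraries with 6 group means and 12 residual degrees of freedom. Benjamini-Hochberg adjustment ran over the genes tested at a threshold of 0.05. CPM were computed with TMM-scaled library sizes, and 63 ERCC spike-ins were left out of the totals. Fold changes, standard errors and counts of calls came from this fit. Library totals of 11417641 to 21872456 set the precision, which is lowest for members with few counts at 4 h.

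Members and lists were chosen with earlier results of these data known. Values in every library are given for the 4 largest rises and falls past the threshold at 24 h, at 72 h and in the difference of those effects, up to 2 at 4 h, a lead of each role, and members that stood apart. Of other lists at most 4 genes are named, the largest changes. Alternatives were DESeq2 1.42.0 size factors and Wald test, limma 3.58.1 (voom), no TMM factors, ERCC scaling, no filter, 10 or more counts per library, only the libraries being compared, the replicate number as a block, an adjusted p under 0.01 and each library left out. ERCC scaling without Asn restriction 72 h replicate 2 was added after seeing the data. Replicate pairs of a group all differed by more than sampling noise (chi-square per degree of freedom 2.12 to 16.3). The highest values, 11.5 and 16.3, came from the pairs with Control 72 h replicate 2, against 3.33 for replicates 1 and 3 of that group. Promoters came from RefSeq, GRCm38.p6, and positions from GENCODE M21 by gene identifier. No column of per-sample values was left unmatched to a sample.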

Additional observations from a re-analysis of the deposited data

Results flagged for a closer look

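The effect of Asn restriction differed between 24 and 72 h in all members by the test of the difference itself (edgeR's quasi-likelihood test), being higher at 72 h in 42 members and lower in 1. Between 4 and 24 h the effect differed upwards in 1 member and downwards in 35. The 72 h effect minus the 24 h effect was, on the log2 scale, 2.61 for Cdk1, 2.22 for Ttk, 2.17 for Aurkb, 2.05 for Mad2l1, 1.73 for Top2a, 1.67 for Cdc20 and 1.65 for Bub1b. It was 1.61 for Plk1, 1.39 for Kif11, 1.37 for Prc1, 1.36 for Ndc80, 1.13 for Mki67 and 0.81 for Foxm1, and -2.87 for Psrc1. Cdk1 and Psrc1 thus marked the ends of the range among the 43 members.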

How the results depend on the processing

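The counts at 24 h lower and at 72 h higher stayed within 1.5 times their value under every alternative. For single members, 3090 of 3221 results kept their side of the threshold and, where past it, their direction. The direction of results that passed in neither setting was not counted. At 4 h, higher calls numbered 4 with ERCC scaling, and lower calls 5 with ERCC scaling, with limma-voom and at an adjusted p under 0.01. At 72 h, lower calls numbered 12 without TMM factors, 1 with ERCC scaling, 1 with ERCC scaling without Asn restriction 72 h replicate 2, and 7 with limma-voom. For the 24 h minus 4 h difference, higher calls numbered 2 without TMM factors and 2 with only the compared libraries, and lower calls 23 with ERCC scaling. Requiring at least 10 counts in every library kept 32 members and dropped Psrc1, so that the single calls at 24 h (higher), in both differences and in control from 4 to 24 h (lower) became 0. The median at 4 h turned to -0.0692 without TMM factors and to -0.11 with ERCC scaling; at 72 h with ERCC scaling Cdc25b turned to 0.0314 and Nusap1 to 0.157. These settings moved the median of all genes by -0.12, 0.11 and -0.11 (no TMM factors) and by -0.14, 0.23 and 0.33 (ERCC) at 4, 24 and 72 h; the cause of other moves was not tested. Same-numbered libraries did not deviate together (r from -0.14 to 0.03 over 9 pairs), and with the replicate block 41 members were lower at 24 h and 22 higher at 72 h. Blocking within the time point ended the 72 h calls of Smc4 (adjusted p = 0.0655) and Nusap1 (0.061). Low counts limit the 4 h values.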
